A study of Mus musculus with 16 samples.

Results

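The 10 genes described here encode 8 secreted ligands of the bone morphogenetic protein (BMP) and growth differentiation factor (GDF) family, Bmp2, Bmp3, Bmp4, Bmp6, Bmp7, Gdf5, Gdf6 and Gdf10, and 2 secreted antagonists, Grem1 and Nog. They were taken by gene name from a table of 49315 genes. Each name matched 1 gene, and all 10 were among the 24188 genes that were tested because they reached 1 TPM in 3 or more libraries. Gdf10 met that filter only through injured libraries. TPM is the share of reads a gene takes once its length is allowed for, scaled to a total of 1000000, so levels can be compared between genes.

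BMP and GDF ligands belong to the transforming growth factor beta superfamily. They are cut from precursors by furin-like proteases. Most bind pairs of type I and type II serine/threonine kinase receptors, and many, though not all, act through SMAD1, SMAD5 and SMAD9 together with SMAD4. Gremlin 1, the product of Grem1, and noggin, the product of Nog, bind ligands outside the cell and keep them from their receptors. In cartilage and in the intervertebral disc the family is known for its part in skeletal development, matrix synthesis and the differentiation of chondrocytes and bone-forming cells.

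RNA was sequenced from tail discs of 16 mice, with 4 discs pooled per mouse, so that each library stands for 1 animal. The mice carried the Adam8EQ allele of the metalloprotease gene Adam8 or were wild type, and the labels call their discs injured or intact. The title of the series sets the mutants against DBA, an inbred strain, and the strain of the mutants is not stated. The groups were intact wild type (n = 3), injured wild type (n = 4), intact mutant (n = 4) and injured mutant (n = 5). The discs were cut from the cartilaginous endplate whole, so nucleus pulposus and annulus fibrosus were not separated. Age, sex, the kind of injury and the time after it are not stated in the labels used here. Library names of mutants begin with A8 in mice 1 and 2 of each group and with M in the other 2 intact and 3 injured mice, while those of all wild-type mice begin with D. What the prefixes stand for is not stated.

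Each library held about 10193597 to 24832147 reads, as worked back from its TPM values. Cartilage and inner annulus markers had a summed level of 4976 to 19738 TPM over 7 genes, with Matn3 under 1 TPM in the lowest library of each group. The 6 notochordal markers of the nucleus pulposus summed to 553 to 6431 TPM, with Shh under 1 TPM in every library. Skeletal muscle markers summed to 16.8 to 708.2 TPM and keratinocyte markers to 7.80 to 24.1 TPM. Changes below are differences of mean log2(TPM + 1) with their standard errors (SE), a scale that understates the change of low genes. A gene is called at a limma adjusted p under 0.05, adjusted over all tested genes. In pooled tissue, fewer cells of a type and less RNA per cell cannot be told apart.

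In the injured mutant disc both antagonists fell while 3 ligands rose. Grem1 fell by 2.64 and Nog had a change of -2.83 on the log2 scale, and Bmp2, Gdf5 and Gdf10 rose by 3.11, 2.02 and 1.59. Gdf10 passed the filter only through injured libraries, which favours a rise. Bmp3, an atypical ligand, fell by 1.78. These 6 of the 10 genes were called for injury in mutants, 3 higher and 3 lower, where 30.8% of all tested genes were called, 13.1% higher and 17.7% lower. The median change of the 10 genes was 0.26, against -0.08 over all tested genes. In wild-type mice 0 of the 10 were called by limma, where 0.116% of all genes were. At an unadjusted p under 0.05 there was 1 of the 10, Bmp2, against 17.2% of all genes. No gene of the 10 was called between genotypes or for the interaction.

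**Figure D1:**
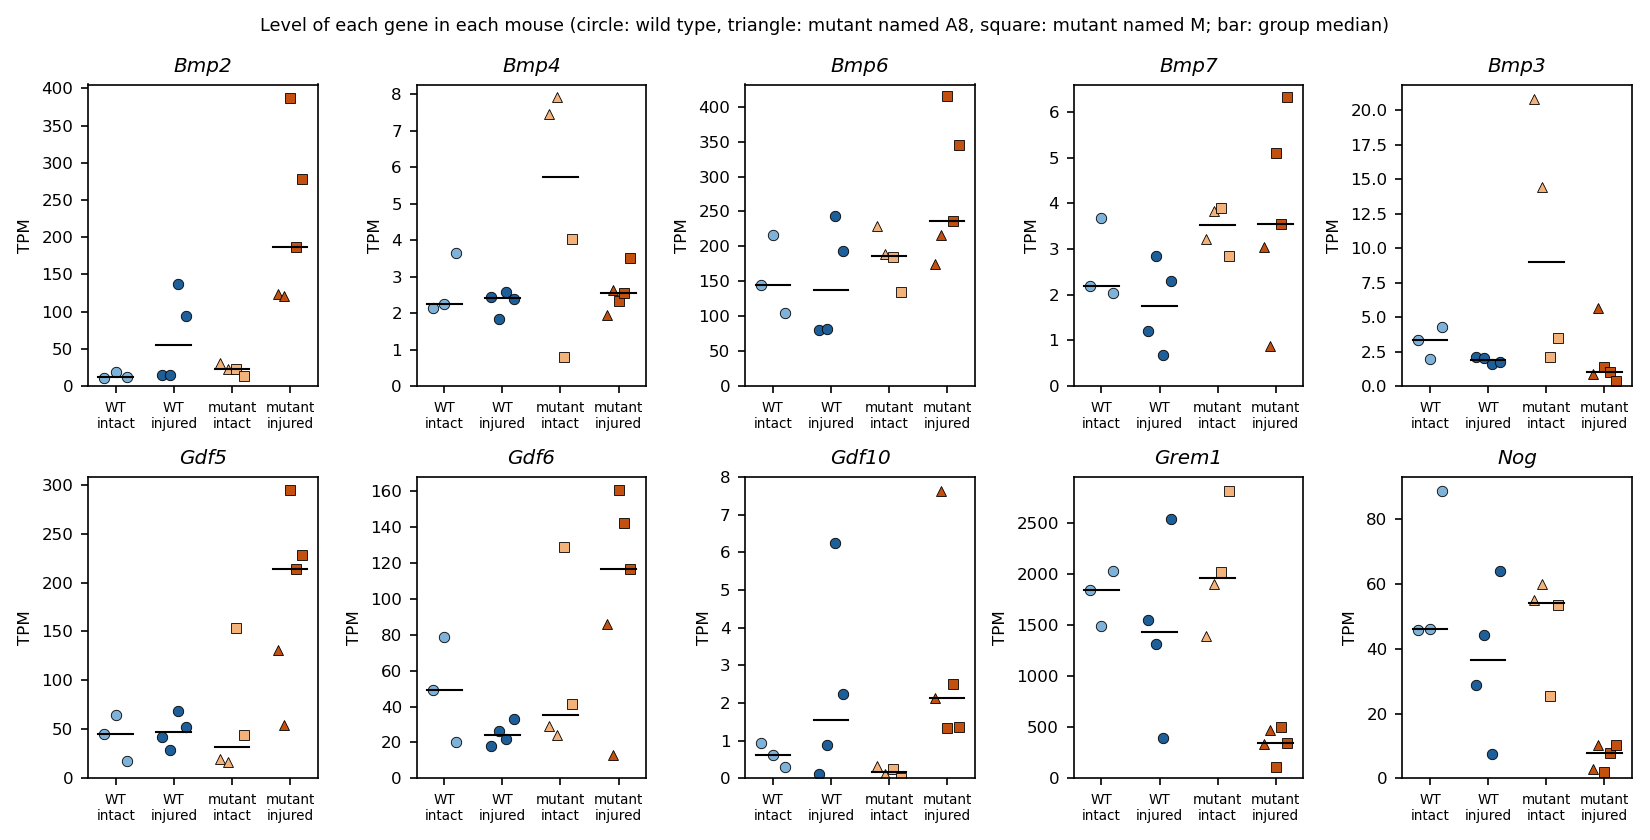
Level of each of the 10 genes in TPM (linear axes from 0, scaled per gene) in each mouse, by group, with bars at the group medians and symbols for the library name prefix. Bmp2 and Gdf10 of all 5 injured mutants lie above, and Grem1 and Nog below, all 4 intact mutants. For Grem1 and Nog, injured wild-type mice spread more widely than injured mutants.

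In the intact disc Grem1 was the highest of the 10 genes in each of the 7 libraries, with medians of 1842 TPM in the wild type and 1964 TPM in mutants. Bmp6 came next in each of them, at medians of 144.5 and 186.6 TPM. Gdf5, Gdf6, Nog and Bmp2 followed at medians of 12.4 to 54.2 TPM, and neighbours in that order overlapped in both genotypes. Bmp3, Bmp4 and Bmp7 lay at medians of 2.196 to 8.96 TPM with overlapping ranges, and Gdf10 was lowest at 0.627 and 0.181 TPM. In injured mutants Grem1 was highest in 3 of 5 libraries and Bmp6 in the other 2. There the medians of Grem1, Bmp6, Gdf5 and Bmp2 ran from 187.2 to 344.4 TPM with neighbours overlapping, and Nog, at a median of 7.90 TPM, was below Gdf6 in every library.

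Promoter windows of 4 of the 10 genes (Bmp4, Bmp6, Gdf10 and Grem1) were matched in RefSeq (GRCm38.p6). The 250 bases before the start are shown for Grem1, which fell, and Gdf10, which rose in injured mutants. Capitals mark matches on either strand to the GC box GGGCGG or to GGCGCC, a BMP response element.
Grem1, chr2:113758649-113758898, minus strand: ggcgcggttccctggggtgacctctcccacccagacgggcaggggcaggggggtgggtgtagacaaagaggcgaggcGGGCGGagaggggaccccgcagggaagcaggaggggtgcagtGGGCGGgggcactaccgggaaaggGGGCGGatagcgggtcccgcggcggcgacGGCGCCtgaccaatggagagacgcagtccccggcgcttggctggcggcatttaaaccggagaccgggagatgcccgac
Gdf10, chr14:33923337-33923586, plus strand: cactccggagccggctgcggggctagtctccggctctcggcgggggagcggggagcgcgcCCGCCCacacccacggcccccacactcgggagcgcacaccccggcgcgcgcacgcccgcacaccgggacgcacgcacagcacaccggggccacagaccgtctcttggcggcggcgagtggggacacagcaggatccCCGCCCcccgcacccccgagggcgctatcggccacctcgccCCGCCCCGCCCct
Both windows are rich in G and C, at 72% and 78.8%, against a median of 52.4% over 32851 promoter windows. The Grem1 window held 3 GC boxes and 1 GGCGCC, and the Gdf10 window held 4 GC boxes, of which the last 2 share 1 base. A GC box was found in 32.7% and GGCGCC in 9.59% of all windows. Neither window held TATAAA (12.4% of all windows), the AP-1 motif TGANTCA (6.75%), the NF-kappaB motif (0.356%) or the E-box CACGTG (6.02%). These are matches of letters only.

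Bmp2 encodes a strong inducer of cartilage and bone formation. It lay at 11.5, 19.5 and 12.4 TPM in intact wild-type mice and at 31.4, 23.4, 23.0 and 13.7 TPM in intact mutants. Injured mutants had 123.4, 120.4, 386.4, 187.2 and 278 TPM in mice 1 to 5. Every injured mutant therefore lay above every intact mutant. In the injured wild type, mice 1 and 2 with 14.8 and 15.2 TPM stayed within the intact range, while mice 3 and 4 reached 136.9 and 94.1 TPM. Bmp2 rose by 3.11 ± 0.65 (SE, limma adjusted p 0.002093) in mutants, against a difference in the wild type of 1.503 ± 0.74 (SE, limma adjusted p 0.2737). Within mutants it was 2.13 ± 1.11 (SE, limma adjusted p 0.1504) among mice named A8 and 3.86 ± 0.98 (SE, limma adjusted p 0.04242) among those named M. Here and below, fits by library name kept all wild-type mice, whose spread enters the SE and the p. They held 2 intact and 2 injured mutants named A8, or 2 intact and 3 injured mutants named M.

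Macrophage markers were also higher in injured mutants and in injured wild-type mice 3 and 4, the libraries with high Bmp2. Their summed level over 5 genes was 98.8 to 121.7 TPM in intact and 134.6, 152.4, 908.4 and 470.9 TPM in injured wild-type mice 1 to 4. It was 110.4 to 140.5 TPM in intact and 242.1 to 1430 TPM in injured mutants, where 4 of the 5 markers were called higher. Among injured mutants the highest macrophage sum and the lowest Bmp2 were both in mouse 2. Mice 3 and 5, with the highest Bmp2 at 386.4 and 278 TPM, had the lowest macrophage sums, 295 and 242.1 TPM. Endothelial, neutrophil and outer annulus markers also summed higher in injured wild-type mice 3 and 4 than in mice 1 and 2. The part of these cells in the result was not tested.

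Bmp6, a ligand known from hypertrophic cartilage and from the control of iron balance, was the most abundant ligand of intact discs. Wild-type levels were 144.5, 215.8 and 104.5 TPM in intact mice and 79.7, 82.2, 244 and 193.5 TPM in injured mice. In mutants they were 229.3, 188.8, 184.4 and 135 TPM in intact mice and 174.4, 215.7, 415, 236.3 and 345.4 TPM in injured mice. Injured mutants 3, 4 and 5, all named M, lay above the intact range, and mice 1 and 2, named A8, lay within it. The difference was 0.54 ± 0.38 (SE, limma adjusted p 0.2631) in mutants and -0.16 ± 0.44 (SE, limma adjusted p 0.8647) in the wild type. Bmp6 shares 224 exon bases with Txndc5 on the opposite strand, which lay at 130.2 to 190 TPM. Whether the counting used strand is not given in the sources used here, so the reads of these genes cannot be told apart there.

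Bmp4, close to Bmp2 in sequence and function, was low throughout. Intact mutants had 7.46, 7.92, 0.797 and 4.04 TPM, a range that held both the highest and the lowest library of all 16. The other groups lay at 1.83 to 3.66 TPM, on 11 to 25 implied reads a library. Bmp4 differed by -0.52 ± 0.38 (SE, limma adjusted p 0.3072) between injured and intact mutants. Without intact mutant mouse 3 the difference was -1.02 ± 0.21 (SE, limma adjusted p 0.007638). It was -1.41 ± 0.21 (SE, limma adjusted p 0.02225) among mice named A8 and 0.32 ± 0.39 (SE, limma adjusted p 0.6392) among those named M.

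Bmp7, a ligand known for roles in kidney and bone, lay at 2.03 to 3.67 TPM in intact wild-type and 2.85 to 3.90 TPM in intact mutant discs. After injury it ranged from 0.674 to 2.86 TPM in the wild type and from 0.878 to 6.32 TPM in mutants, overlapping the intact range in both. Its difference was -0.45 ± 0.41 (SE, limma adjusted p 0.575) in the wild type. In mutants it was -0.03 ± 0.36 (SE, limma adjusted p 0.9616), with the opposite sign under both other scalings.

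Bmp3 encodes an atypical member known to oppose bone-inducing BMPs. Intact mutants had 20.8 and 14.4 TPM in mice 1 and 2, named A8, and 2.08 and 3.52 TPM in mice 3 and 4, named M. Injured mutants had 0.840, 5.69, 1.41, 1.005 and 0.381 TPM, and only mouse 2, also named A8, lay inside the intact range. Wild-type levels were 3.35, 2.00 and 4.25 TPM in intact and 2.08, 2.00, 1.59 and 1.74 TPM in injured mice, which overlapped. Bmp3 fell by 1.78 ± 0.58 (SE, limma adjusted p 0.02238) in mutants, against a difference in the wild type of -0.52 ± 0.66 (SE, limma adjusted p 0.6791). The call was lost without intact mutant mouse 1 (limma adjusted p 0.08088) or mouse 2 (limma adjusted p 0.07863), and in a fit of only the groups compared (limma adjusted p 0.06729). Among mutants named M the difference was -0.99 ± 0.30 (SE, limma adjusted p 0.1193) and among those named A8 it was -2.39 ± 0.57 (SE, limma adjusted p 0.02471).

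Gdf5 and Gdf6 encode related ligands that act in joint formation and skeletal patterning. Gdf5 lay at 45.4, 64.2 and 17.7 TPM in intact and 41.8, 29.4, 68.7 and 52.5 TPM in injured wild-type discs, overlapping ranges. In mutants it lay at 19.4, 16.5, 153.1 and 43.8 TPM in intact and 131.3, 54.3, 294.2, 213.5 and 227.8 TPM in injured discs. Injured mutants 3, 4 and 5 were above every intact mutant, while mice 1 and 2 lay below intact mouse 3. Gdf5 rose by 2.02 ± 0.68 (SE, limma adjusted p 0.0229) in mutants and differed by 0.29 ± 0.77 (SE, limma adjusted p 0.8589) in the wild type. Leaving out intact mutant mouse 1, intact mutant mouse 2 or injured mutant mouse 3 ended the call (limma adjusted p 0.07568, 0.08232 and 0.05509), as did a fit of only the groups compared (limma adjusted p 0.051). The change was 2.18 ± 0.69 (SE, limma adjusted p 0.03931) among A8 and 1.55 ± 0.66 (SE, limma adjusted p 0.1424) among M. Of the 2320 exon bases of Gdf5, 936 are shared with Gm15557 on the opposite strand, which makes its value uncertain. Gm15557 itself lay at 0 to 3.43 TPM in intact and 0.696 to 10.9 TPM in injured discs.

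Gdf6 lay at 49.3, 78.7 and 20.3 TPM in intact and 17.9, 26.6, 22.0 and 33.1 TPM in injured wild-type discs. In mutants it lay at 29.4, 24.1, 128.8 and 41.4 TPM in intact and 85.9, 13.1, 160.8, 142.3 and 117 TPM in injured discs. The lowest and the highest of all 16 libraries were both injured mutants, mouse 2 and mouse 3. The difference was 0.83 ± 0.72 (SE, limma adjusted p 0.3647) in mutants and -0.80 ± 0.82 (SE, limma adjusted p 0.591) in the wild type. Without injured mutant mouse 2 it was 1.45 ± 0.53 (SE, limma adjusted p 0.03502) in mutants. The ratio of Gdf5 to Gdf6 was 0.658 to 1.19 in the 7 intact and 1.10 to 4.15 in the 9 injured libraries, a description with no test.

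Levels in mutants were also compared by library name. With injury in the same model, mutants named M differed from those named A8 by 1.80 ± 0.47 (SE, limma adjusted p 0.1699) for Gdf5, by 1.74 ± 0.55 (SE, limma adjusted p 0.2344) for Gdf6 and by -1.53 ± 0.40 (SE, limma adjusted p 0.1715) for Bmp3. These were the largest differences among the 10 genes. None of these passed the threshold, and limma called 0 of all tested genes. For Bmp2 and Grem1 the differences were 0.36 ± 0.68 (SE, limma adjusted p 0.8514) and -0.06 ± 0.56 (SE, limma adjusted p 0.9777).

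Gdf10, also known as BMP3b, is a close relative of Bmp3. It was the scarcest of the 10 in intact discs, at 0.948, 0.627 and 0.309 TPM in the wild type and 0.323, 0.125, 0.236 and 0 TPM in mutants, or 0 to 15 implied reads. Injured mutants had 2.13, 7.63, 1.34, 2.49 and 1.38 TPM on 23 to 135 implied reads, all above the intact mutants. Injured wild-type mice 3 and 4 had 6.25 and 2.23 TPM, above the intact range, and mice 1 and 2 had 0.128 and 0.886 TPM. Gdf10 rose by 1.59 ± 0.50 (SE, limma adjusted p 0.01967) in mutants and differed by 0.73 ± 0.57 (SE, limma adjusted p 0.49) in the wild type. No intact library reached 1 TPM, so the gene was tested only because of injured libraries. Its rise and its lack of overlap are thus in part set by the filter. With a pseudocount of 0.1 in place of 1 the rise in mutants was 3.39 on that scale, so its size depends on the pseudocount. The call was lost without intact mutant mouse 4, the library listed at 0 (limma adjusted p 0.05133). Within library names the change was 2.09 ± 0.86 (SE, limma adjusted p 0.09298) for A8 and 1.27 ± 0.67 (SE, limma adjusted p 0.2364) for M.

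Grem1 encodes a cystine-knot protein that binds BMP2, BMP4 and BMP7. It lay at 1842, 1491 and 2031 TPM in intact wild-type and at 1392, 1903, 2025 and 2820 TPM in intact mutant discs. Injured mutants had 336, 477.4, 111.9, 505 and 344.4 TPM, all below the intact mutants. In the injured wild type, mice 1 and 2 had 1547 and 1312 TPM, mouse 3 had 394.1 TPM and mouse 4 had 2545 TPM. Mouse 3 thus lay inside the injured mutant range and mouse 4 above all intact wild-type mice, although Bmp2 was high in both. Grem1 fell by 2.64 ± 0.53 (SE, limma adjusted p 0.001839) in mutants and differed by -0.57 ± 0.61 (SE, limma adjusted p 0.6092) in the wild type. Within library names the change in mutants was -2.02 ± 0.78 (SE, limma adjusted p 0.0709) for A8 and -3.15 ± 0.83 (SE, limma adjusted p 0.04824) for M.

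**Figure D2:**
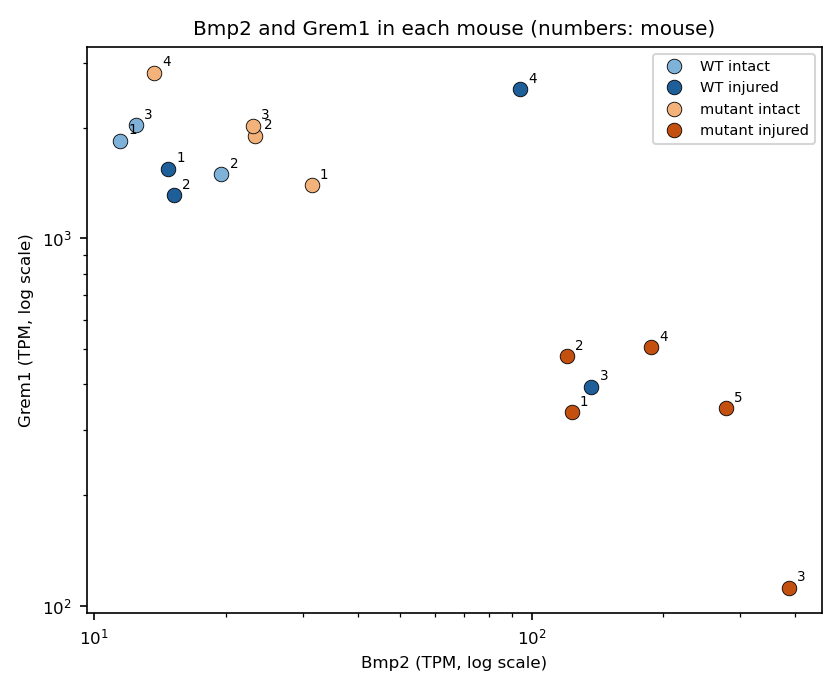
Bmp2 against Grem1 in TPM, both on log axes, with 1 point per mouse, coloured by group and numbered within it. The 5 injured mutants and injured wild-type mouse 3 have high Bmp2 and low Grem1, while injured wild-type mouse 4 has 94.1 TPM of Bmp2 and 2545 TPM of Grem1.

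Nog encodes noggin, which covers the receptor-binding faces of BMP dimers. Its level was 45.7, 46.0 and 88.8 TPM in intact wild-type and 55.1, 59.9, 25.3 and 53.4 TPM in intact mutant discs. Injured mutants had 2.95, 10.4, 1.81, 7.90 and 10.4 TPM, on 10 to 60 implied reads, and none overlapped the intact mutants. Injured wild-type mice had 28.7, 44.1, 7.46 and 64.0 TPM, so mouse 3 lay in the injured mutant range and mouse 4 in the intact range. Nog fell by 2.83 ± 0.61 (SE, limma adjusted p 0.002476) in mutants and differed by -0.99 ± 0.70 (SE, limma adjusted p 0.4225) in the wild type. The change in mutants was -3.12 ± 0.98 (SE, limma adjusted p 0.03743) among A8 and -2.52 ± 0.93 (SE, limma adjusted p 0.1049) among M.

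The calls of Bmp2, Grem1 and Nog for injury in mutants were kept when each of the 9 mutant mice was left out in turn. Injured and intact mutants did not overlap for 4 of the 10 genes, Bmp2 and Gdf10 higher and Grem1 and Nog lower, as for 27.2% of all tested genes (12.0% higher and 15.3% lower). In the wild type this held for 0 of 10, against 15.6% of all genes.

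Markers of several cell types moved with injury beside the antagonists. Notochordal markers summed to 3329 to 5502 TPM in intact and 553 to 3345 TPM in injured mutants, with T, Krt8 and Krt19 called lower among 5 tested. Injured mutant mouse 4, at 3345 TPM, lay just above the lowest intact mutant, mouse 3 at 3329 TPM. The other intact mutants had 5102 to 5502 TPM. Its Grem1 and Nog, in injured mutant mouse 4, were below the intact range. T alone lay at 21.5 to 1568 TPM in injured and 1789 to 2916 TPM in intact mutants, without overlap. In injured wild-type mice 1 to 4 the notochordal markers summed to 5263, 4246, 1457 and 2294 TPM, against 5868 to 6431 TPM in intact ones. Wild-type mouse 4, whose Grem1 and Nog were not below the intact range, thus had a notochordal sum that was. The cartilage markers summed to 19738 TPM in that mouse, 6397 TPM in mouse 3 and 4976 to 13767 TPM in injured mutants, where Comp and Cnmd were called lower and Hapln1 higher among 7. Outer annulus and tendon markers summed to 2865 to 4306 TPM in intact and 6413 to 10728 TPM in injured mutants, with Dcn and Thbs4 called higher and Scx, Tnmd and Mkx lower among 6. In the wild type that sum was 2114 to 2731 TPM in intact and 3376, 4356, 11765 and 6172 TPM in injured mice 1 to 4. Neutrophil markers summed to 0.337 to 1.14 TPM in intact and 5.26 to 570.3 TPM in injured mutants, with S100a8 and S100a9 called higher among 3 tested and Mpo under 1 TPM in every library. In the wild type they summed to 1.69 to 3.59 TPM in intact and 1.66, 2.14, 94.3 and 94.5 TPM in injured mice. The part of cell makeup in the changes of the 10 genes was not tested.

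**Figure D3:**
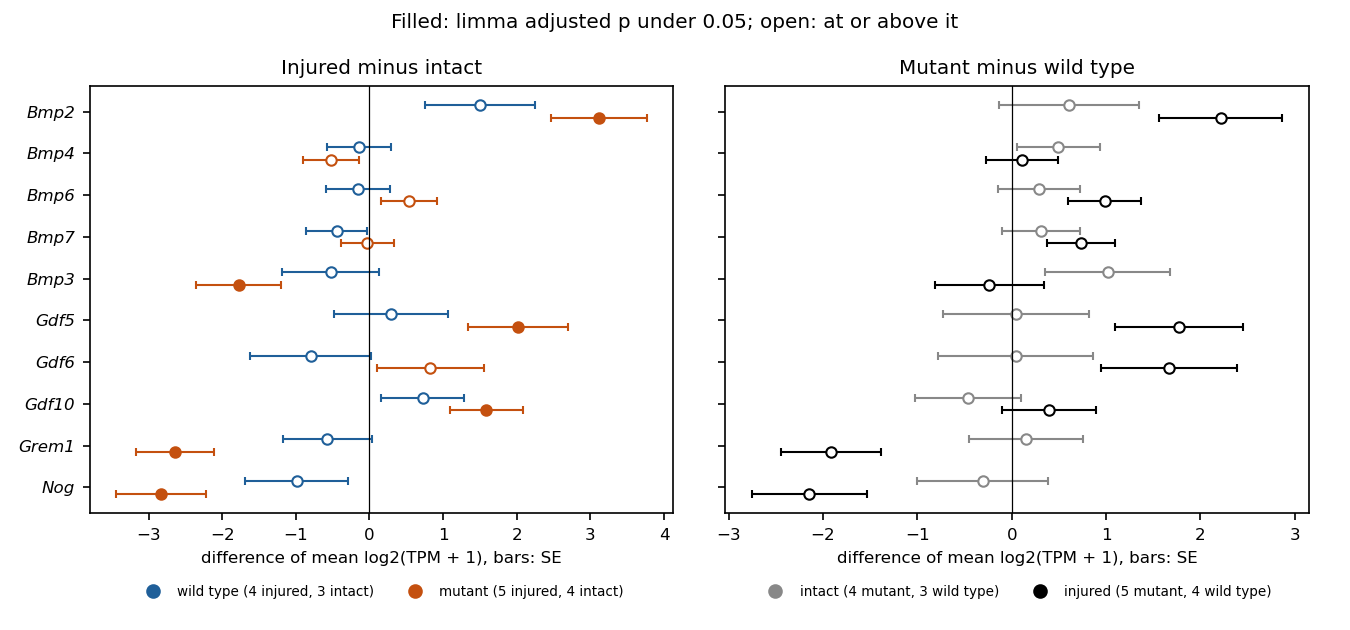
Difference of mean log2(TPM + 1) with its SE for each gene, for injury in each genotype (left) and for mutant minus wild type in each treatment (right), filled where the limma adjusted p is under 0.05. The 6 filled points are all for injury in mutants, with Bmp2, Gdf5 and Gdf10 to the right of 0 and Bmp3, Grem1 and Nog to the left.

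Mutants were compared with wild-type mice within each treatment. The Adam8EQ allele cannot be told apart there from any difference of strain or of what the library names stand for. All wild-type names begin with D and no mutant name does. In intact discs 0 of the 10 were called by limma (0.0165% of all genes), and 0 had an unadjusted p under 0.05 (3.78% of all genes). The differences ran from -0.46 ± 0.57 for Gdf10 to 1.02 ± 0.66 for Bmp3 (SE). The ranges overlapped for all 10, against 6.18% of all genes without overlap.

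In injured discs 0 of the 10 were called (0.918% of all genes), while 6 had an unadjusted p under 0.05 (20.3% of all genes). Injured mutants differed from injured wild-type mice by -1.92 ± 0.53 (SE, limma adjusted p 0.07092) for Grem1 and by -2.14 ± 0.61 (SE, limma adjusted p 0.07256) for Nog. The difference was 2.21 ± 0.65 (SE, limma adjusted p 0.07644) for Bmp2, 1.77 ± 0.68 (SE, limma adjusted p 0.1337) for Gdf5, 0.98 ± 0.38 (SE, limma adjusted p 0.1416) for Bmp6 and 1.67 ± 0.72 (SE, limma adjusted p 0.1738) for Gdf6. The ranges overlapped for all 10 genes, against 4.77% of all genes without overlap. Without wild-type mouse 3, limma called 4 of the 10: Grem1 at -2.45 ± 0.45 (SE, limma adjusted p 0.006973), Nog at -2.74 ± 0.52 (SE, limma adjusted p 0.007532), Bmp2 at 2.78 ± 0.60 (SE, limma adjusted p 0.01221) and Bmp6 at 1.28 ± 0.38 (SE, limma adjusted p 0.03504). All genes called then numbered 2253, against 222 with that mouse. Without injured mutant mouse 2 there were 3 called, Grem1, Nog and Gdf6, and without injured mutant mouse 4 there was 1, Grem1.

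Whether injury acted differently in mutants was tested as an interaction. Of the 10 genes 0 were called by limma (0% of all genes), and 2 had an unadjusted p under 0.05 (8.18% of all genes). The injury change in mutants minus that in the wild type was -2.07 ± 0.81 (SE, limma adjusted p 0.5211) for Grem1 and -1.84 ± 0.93 (SE, limma adjusted p 0.5986) for Nog. For Bmp2 it was 1.61 ± 0.99 (SE, limma adjusted p 0.665) and for Gdf5 1.73 ± 1.031 (SE, limma adjusted p 0.6466). A different response to injury in mutants was thus not shown for any of the 10 genes.

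Shares of the summed level describe the makeup of the 10 genes in each library, with no test. Grem1 and Nog together made up 79.9% to 92.8% of the summed TPM in the 7 intact libraries. In injured mutants 1 to 5 their share in percent was 39.3, 53.7, 8.24, 39.4 and 26.6, below every intact library. In injured wild-type mice 1 to 4 it was 90.8, 89.4, 45.4 and 87.2, and only mouse 3 left the intact range. The 8 ligands summed to 165.2 to 496.3 TPM in intact libraries, to 160.1, 161, 482.7 and 381.8 TPM in injured wild-type mice and to 420.2 to 1266 TPM in injured mutants. The ratio of Grem1 to Bmp2 was 44.3 to 206 in intact discs and 0.290 to 3.97 in injured mutants. In injured wild-type mice 1 to 4 it was 105, 86.2, 2.88 and 27.1.

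**Figure D4:**
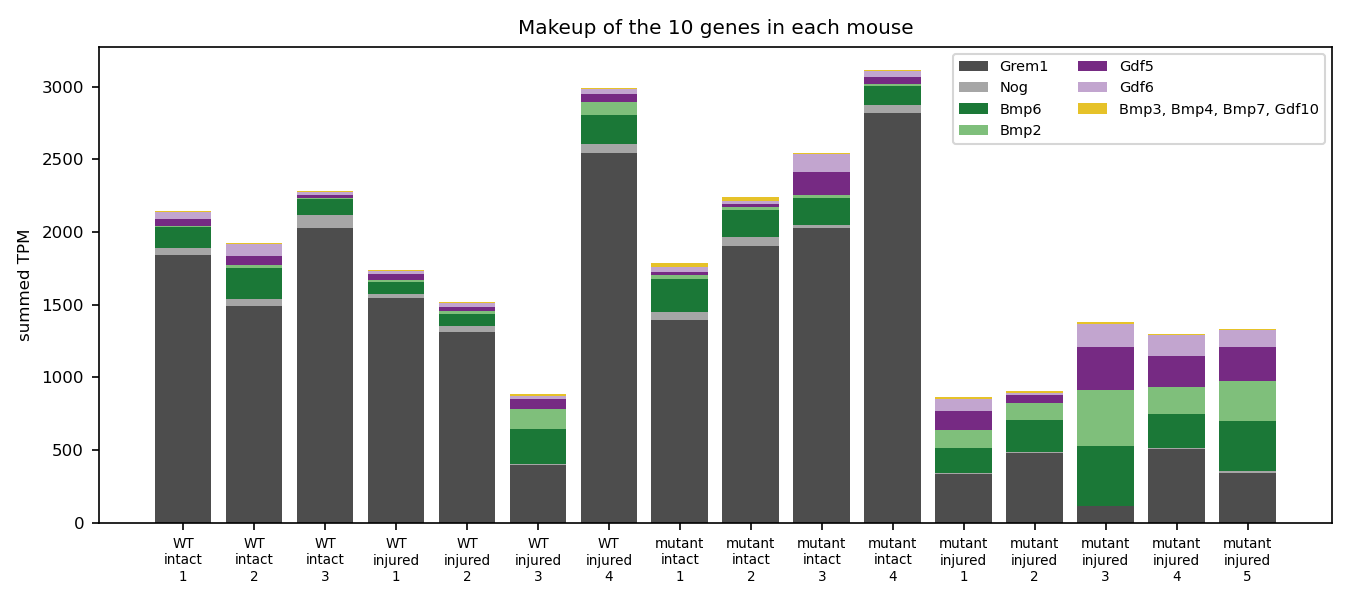
Summed TPM of the 10 genes in each mouse, stacked by gene (linear axis from 0). Grem1 and Nog fill most of each bar in intact discs and in injured wild-type mice 1, 2 and 4, and less than the ligands do in 4 of 5 injured mutants.

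Other genes of the pathway were taken from lists of further ligands, antagonists, receptors, SMADs, targets and proteases. Of 8 tested further ligands, 2 were called for injury in mutants, both higher, beside 13.1% of all genes called higher and 17.7% lower. A list of 8 is too short to set against those shares. Bmp8a rose by 1.49 ± 0.27 (SE, limma adjusted p 0.001904), from 0.692 ± 0.292 to 3.75 ± 0.814 TPM (SD, n = 4 and 5), and Gdf15, a stress-induced member, rose by 2.05 ± 0.67 (SE, limma adjusted p 0.02233). No intact library held Gdf15 at 1 TPM, so it too entered the tests only through injured libraries. The median change of the 8 was -0.24, against -0.08 over all genes.

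Of 15 tested further antagonists and modulators, 8 were called, 6 lower and 2 higher, beside 17.7% of all genes called lower and 13.1% higher. Chordin, which holds ligands until it is cut, is encoded by Chrd, which fell by 1.66 ± 0.32 (SE, limma adjusted p 0.001454), from 58.3 ± 2.51 to 19.2 ± 8.99 TPM (SD, n = 4 and 5). Its relative Chrdl1 fell by 1.68 ± 0.30 (SE, limma adjusted p 0.001217) and Chrdl2 fell by 3.39 ± 0.83 (SE, limma adjusted p 0.004751). Sostdc1, which binds BMPs and Wnt co-receptors, fell by 2.60 ± 0.64 (SE, limma adjusted p 0.004835), from 193.9 ± 67.3 to 37.4 ± 27.1 TPM (SD, n = 4 and 5). Crim1 and Vwc2 were the other genes called lower. Fst, which encodes the activin-binding follistatin, rose by 1.91 ± 0.53 (SE, limma adjusted p 0.01029), and Fstl1 rose by 1.92 ± 0.63 (SE, limma adjusted p 0.02039). The median change of the 15 was -0.30. No gene of the 6 lists was called for injury in the wild type, where 11 of their 54 tested genes did not overlap between injured and intact mice, 4 higher and 7 lower, against 15.6% of all genes. Fst, for example, lay at 2.54 to 7.48 TPM in injured and 1.16 to 1.49 TPM in intact wild-type mice, and Fstl1 at 37.6 to 401.8 and 22.9 to 33.5 TPM, both without overlap. Those lower without overlap included Fstl3, at 8.87 to 11.2 TPM in injured and 12.8 to 19.8 TPM in intact mice.

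Of the 10 receptors and co-receptors, 6 were called in mutants, 5 lower and 1 higher, beside 17.7% of all genes lower and 13.1% higher. The type I receptor gene Acvr1 rose by 1.28 ± 0.25 (SE, limma adjusted p 0.001721), from 48.7 ± 7.17 to 123.6 ± 38.0 TPM (SD, n = 4 and 5). The type II receptor gene Acvr2a fell by 1.17 ± 0.37 (SE, limma adjusted p 0.01714) and Acvr2b fell by 1.12 ± 0.16 (SE, limma adjusted p 0.0007637). The type I receptor gene Bmpr1a fell by 0.50 ± 0.14 (SE, limma adjusted p 0.0126), the co-receptor gene Rgmb fell by 0.89 ± 0.18 (SE, limma adjusted p 0.002086), and Rgma was called lower too. Bmpr2, a type II receptor gene, lay at 98.5 ± 9.92 and 108.4 ± 25.4 TPM (SD, n = 4 and 5) and was not called.

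Between genotypes, 4 genes of these lists were called in injured discs and all were lower in mutants, where 0.728% of all genes were called lower. The difference was -3.09 ± 0.64 (SE, limma adjusted p 0.02999) for Sostdc1, -1.39 ± 0.30 (SE, limma adjusted p 0.03929) for Chrdl1, -1.08 ± 0.21 (SE, limma adjusted p 0.04875) for Kcp and -0.78 ± 0.16 (SE, limma adjusted p 0.04898) for Acvr2b. These calls were not stable: leaving out 1 mouse at a time gave 0 to 7 called antagonists and 0 to 3 called receptors, with the most antagonists without wild-type mouse 3. In intact discs Kcp was also lower in mutants without overlap, at 1.59 to 2.095 TPM against 3.58 to 4.23 TPM in the wild type. Sostdc1, Chrdl1 and Acvr2b overlapped there, and no gene of these lists was called. Of all tested genes 6.18% did not overlap between genotypes in intact discs.

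Of 6 SMADs and SMAD ubiquitin ligases, 4 were called, 3 lower and 1 higher, beside 30.8% of all genes in either direction. That count was not stable: it was 1 to 4 with a mouse left out, 1 with only mutants named A8 and 0 with only those named M. Smad4 fell by 0.38 ± 0.07 (SE, limma adjusted p 0.003991), Smad5 fell by 0.36 ± 0.11 (SE, limma adjusted p 0.02581) and Smad9 fell by 0.75 ± 0.25 (SE, limma adjusted p 0.02601). Smurf1, whose product marks SMADs and receptors for degradation, rose by 0.38 ± 0.11 (SE, limma adjusted p 0.02219). Of 11 tested target genes of BMP signalling, 3 rose and 3 fell, beside 13.1% of all genes called higher and 17.7% lower. Id2 rose by 1.49 ± 0.22 (SE, limma adjusted p 0.0004823), from 170 ± 58.0 to 458.5 ± 59.8 TPM (SD, n = 4 and 5), the inhibitory SMAD gene Smad7 rose by 1.67 ± 0.29 (SE, limma adjusted p 0.0009133) and Atoh8 rose by 0.89 ± 0.29 (SE, limma adjusted p 0.03047). Id4 fell by 1.69 ± 0.49 (SE, limma adjusted p 0.01132), Dlx5 fell by 1.86 ± 0.62 (SE, limma adjusted p 0.02143) and the decoy receptor gene Bambi fell by 0.86 ± 0.21 (SE, limma adjusted p 0.008128). The widely used readouts Id1 and Id3 were not called, with differences of 0.56 ± 0.36 (SE, limma adjusted p 0.2105) and 0.26 ± 0.35 (SE, limma adjusted p 0.5706). The called targets therefore had no common direction.

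Of 4 tested proteases that activate ligands or cut chordin, 2 were called, both genes of proprotein convertases, beside 30.8% of all genes. A list of 4 is too short to set against that share. Furin rose by 0.57 ± 0.19 (SE, limma adjusted p 0.02601) and Pcsk6 fell by 1.48 ± 0.30 (SE, limma adjusted p 0.001989). Bmp1, which despite its name encodes a chordin-cutting protease, differed by 0.33 ± 0.25 (SE, limma adjusted p 0.2922).

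**Figure D5:**
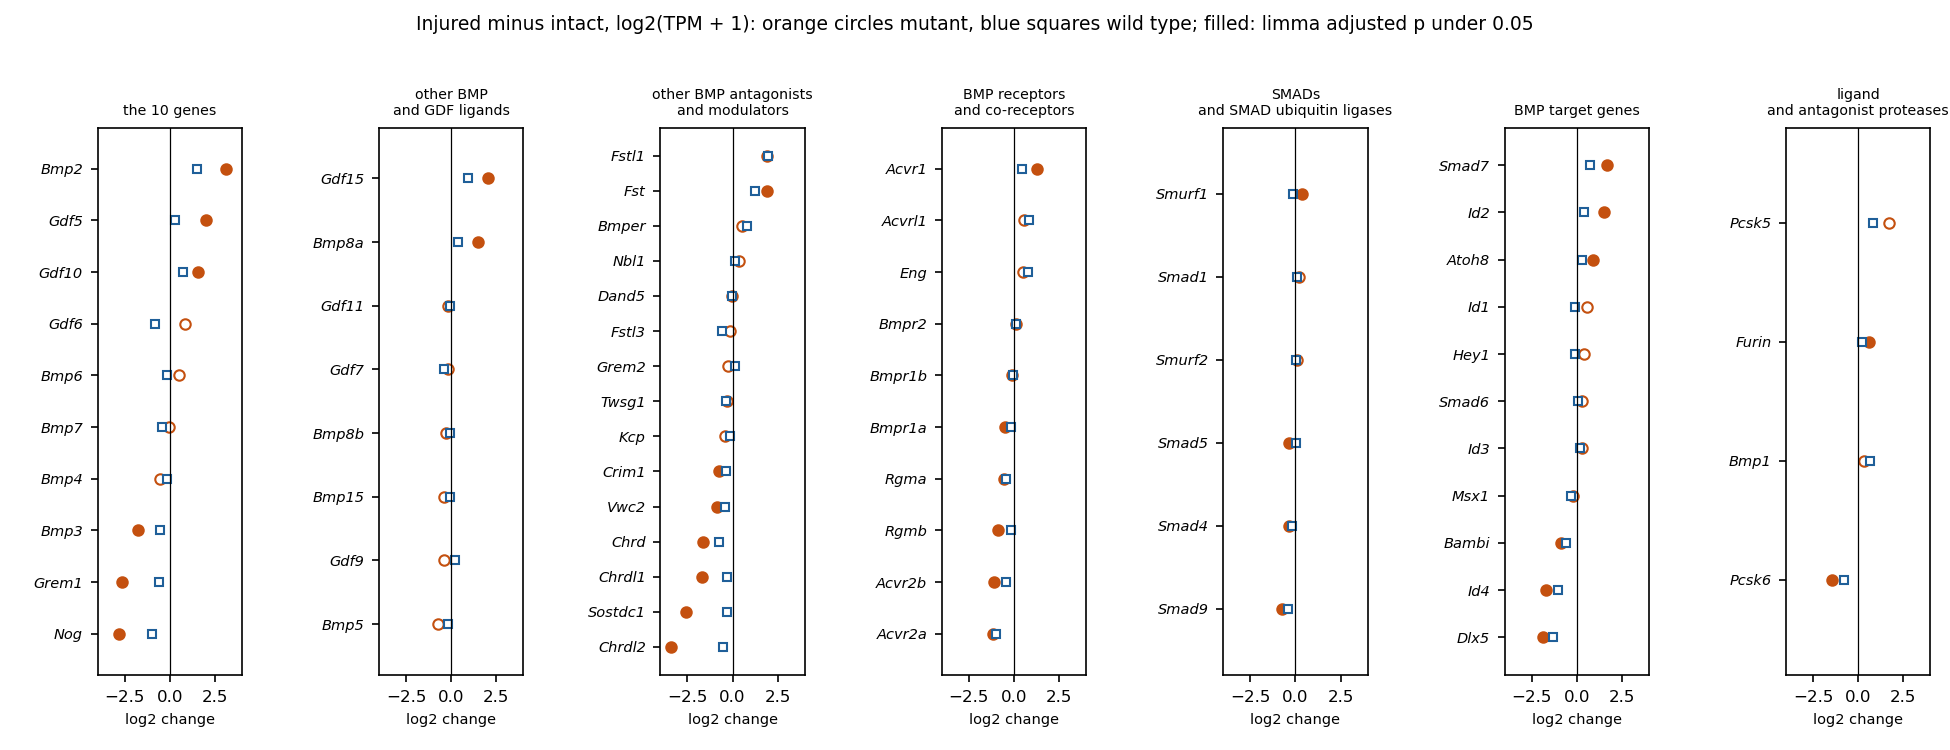
Injury change in log2(TPM + 1) of each tested gene among the 10 genes and the 6 pathway lists, in mutants (circles) and the wild type (squares), filled where the limma adjusted p is under 0.05. All filled points are circles, and among the further antagonists Chrdl2 and Sostdc1 lie farthest to the left.

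The genes most like each member were found by the root-mean-square difference between z-scores of log2(TPM + 1) over the 16 libraries, among 11930 named genes with a mean of 5 TPM or more. A value of 0 means the same shape. This is a description, since all libraries share the injury contrast. For Bmp2 the nearest were Rin2 (0.170), Slc22a4 (0.177) and Medag (0.214). Grem1 was nearest to Ctxn3 (0.223), Frzb (0.268), which encodes a secreted Wnt antagonist of cartilage, and Trpc4 (0.301). Nog was nearest to Zfhx4 (0.223), Omd (0.245), which encodes a small proteoglycan of bone, and Hs3st3a1 (0.248). The single nearest gene was Furin (0.324) for Gdf5, Sema6b (0.253) for Gdf10, Klf4 (0.369) for Bmp6 and Itpr2 (0.391) for Gdf6. It was Pdxk (0.427) for Bmp3, Ngef (0.526) for Bmp7 and Atg4b (0.616) for Bmp4. Among the members, Grem1 and Nog were the closest pair (0.349), followed by Gdf5 and Gdf6 (0.591).

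By position (GRCm38, GENCODE M21), 4 of the genes lie on chromosome 2: Grem1 (113746164 to 113758646, minus strand), Bmp2 (133552159 to 133562885, plus strand), Gdf5 (155941023 to 155945367, minus strand) and Bmp7 (172868012 to 172940321, minus strand). Bmp4 (46383520 to 46390669, minus strand) and Gdf10 (33923587 to 33937983, plus strand) are on chromosome 14. Bmp3 lies on chromosome 5 (98854415 to 98884396, plus strand), Gdf6 on chromosome 4 (9844372 to 9862345, plus strand), Bmp6 on chromosome 13 (38345107 to 38500302, plus strand) and Nog on chromosome 11 (89300638 to 89302332, minus strand). All 10 are annotated as protein coding.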

How the data were processed

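Expression was measured by RNA sequencing in 16 libraries, 1 per mouse. The authors deposited TPM values, 1 column per mouse, each summing to 1000000. Ribosomal RNA was depleted before library preparation, per the labels' protocols, while the labels' molecule field gives polyA RNA. Base calls were converted with bcl2fastq 2.20 and the build was GRCm38, per the submitters' processing notes. The aligner, the counting method, its annotation and its use of strand are not given in the sources used here.

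Columns were matched to mice by library name and groups were taken from the titles. A gene entered the tests when 3 or more libraries held it at 1 TPM or above. A single limma 3.58.1 model (R 4.3.3, Python 3.11.15 for the rest) on log2(TPM + 1) covered all libraries, with a mean per group, a trended prior variance and 5 contrasts, and Benjamini-Hochberg adjustment ran over the 24188 genes of a contrast. The model was tested on simulated data. Depth was approximated from the steps in low values given GENCODE M21 exon lengths: 94.2% to 95.0% of values under 20 implied reads came within 0.05 of a whole number.

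The 10 genes and all lists were chosen with earlier results of these data known. All 10 were named whatever their result. Of the lists, the 4 called genes with the smallest adjusted p per list and direction were named, with genes called between genotypes, and the 3 genes most like a member, and any list gene could be given by its level (as Bmpr2, Fstl3 and the markers were). Crim1, Vwc2, Rgma, Bmp1, Id1 and Id3 were named after their values were seen. Alternatives were another pseudocount, other filters, 2 scalings, no trend, sample weights, only the groups compared, a replicate block, library naming, skeletal muscle as a covariate and leaving out each mouse.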

Additional observations from a re-analysis of the deposited data

Results flagged for a closer look

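In 3 of 30 sets of 4 or 5 mice, 1 mouse stood apart from the rest of its group by Dixon's criterion at the 95% level, where chance gives about 1 in 20 sets, or 1.5 of the 30. Bmp3 was at 5.69 TPM in injured mutant mouse 2, and the next highest injured mutant had 1.41 TPM. Gdf10 was at 7.63 TPM in the same mouse, against 2.49 TPM in the next. Gdf6 was at 128.8 TPM in intact mutant mouse 3, and the next intact mutant had 41.4 TPM.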

How the results depend on the processing

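For injury in mutants, 6 of the 10 genes were called, and 4 to 7 when each mouse was left out. With only mutants named M, 2 were called, Bmp2 and Grem1. With only those named A8, Bmp3, Bmp4, Gdf5 and Nog were called, so no gene was called in both. Both fits also held the wild-type mice, whose spread enters these calls, and few mutants each. For genotype in injured discs, 0 were called, 3 with sample weights, 2 with only mutants named M, and 0 to 4 with a mouse left out. The other 3 comparisons called 0 of the 10 under every alternative run. Over all genes, leaving out a mouse gave 2 to 452 calls for injury in the wild type (28 with all mice), 7 to 2253 for genotype in injured discs (222) and 0 to 15 for the interaction (0). Only mutants named M gave 725 calls for injury in mutants and only those named A8 gave 3583 (7438 with all mice). The list counts for injury in mutants moved too. With a mouse left out they were 1 to 3 for further ligands, 6 to 9 for antagonists and 5 to 6 for receptors. They were 4 to 7 for targets and 1 to 3 for proteases. With only M they were 0 for ligands, antagonists and proteases, and 2 for receptors and for targets. Sample weights gave 1070 for genotype in injured discs. The cause was not tested.

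The replicate block used the shared numbers. Over 21 same-number pairs the correlation of deviations ran from -0.217 to 0.151. With no different-number pairs beside them, these values cannot decide whether the numbers pair mice. With the block, all genes called were 5 for injury in the wild type and 11 for genotype in injured discs, and Bmp3 in injured mutants was -1.57 (limma adjusted p 0.05631). In intact discs the genotype difference then turned to -0.056 for Gdf5, -0.10 for Gdf6 and -0.10 for Grem1.

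The remaining changes of sign were in values not called. For injury in the wild type, Gdf6 was 0.044 with muscle as a covariate, and with a mouse left out Bmp4 ranged from -0.24 to 0.044, Bmp6 from -0.45 to 0.11 and Gdf5 from -0.23 to 0.67. For injury in mutants, Bmp4 was 0.32 with only M and Bmp6 -0.10 with only A8. Bmp7 was 0.037 and 0.038 under median-of-ratios and quantile scaling, 0.19 with sample weights, 0.44 with only M, and -0.22 to 0.27 with a mouse left out. For genotype in intact discs, only M gave -0.13 for Bmp3 and -0.27 for Bmp4. Only A8 gave -1.02 for Gdf5, -0.67 for Gdf6, -0.12 for Grem1 and 0.0076 for Nog. Sample weights gave -0.26 for Gdf5 and -0.23 for Gdf6, and quantile scaling -0.067 for Grem1. With a mouse left out the ranges there were -0.61 to 0.44 for Gdf5, -0.48 to 0.47 for Gdf6, -0.019 to 0.32 for Grem1 and -0.47 to 0.0059 for Nog. In injured discs only A8 gave 0.30 for Bmp3 and -0.0101 for Bmp4, and Gdf10 ranged from -0.014 to 0.88 with a mouse left out. For the interaction Bmp4 was 0.46 with only M and Bmp7 -0.27 with only A8. Bmp3, Bmp4, Bmp7 and Gdf10 rest on few reads, which limits their precision.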
